A study of Homo sapiens with 4 samples.

Results

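Insulin-like growth factors (IGFs) circulate and act in tissues bound to carrier proteins, and 9 genes of that carrier system were examined here in a human liver cancer cell line. They were taken by name: the binding proteins IGFBP1, IGFBP2, IGFBP3, IGFBP4, IGFBP5 and IGFBP6, the acid-labile subunit IGFALS, the ligand IGF1, and IGF2R, the receptor that removes IGF2. Each had 1 probe set under its own symbol, so all 9 were measured, of 22357 genes named on the array. The genes were chosen by name with earlier results of these arrays known, and IGFBP1 was singled out on its measured spread within both groups (the 4 values given below). That spread is therefore a description, with no test.

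The line, Huh7, comes from a hepatocellular carcinoma. Its cells received either pcFLAG-hSTYK1, which carries human STYK1, or the plasmid pcFLAG. STYK1, also called NOK, is a receptor-like kinase, and the comparison asks which transcripts differ when it is overexpressed. Whole-transcript arrays were run on 2 STYK1 and 2 control samples. The labels give no time after transfection and name no separate cultures, so the p-values reflect sample-to-sample spread that may be technical.

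The IGFBPs hold IGF1 and IGF2 in a complex, lengthen their life and keep them from the IGF1 receptor. In plasma most IGF travels in a ternary complex of ligand, IGFBP3 or IGFBP5, and the acid-labile subunit, which the liver secretes. IGFBP1 is made mainly by hepatocytes, is held down by insulin through FOXO transcription factors, and is raised by fasting, hypoxia and amino acid shortage. PAPPA, a metalloprotease, cuts IGFBP4 and so frees the ligand, and the stanniocalcins STC1 and STC2 inhibit PAPPA.

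Values are log2 signals, and a probe set's level is not comparable with that of another. A background floor was set on each array from 434 probe sets for olfactory receptors, which liver cells should lack; their 95th percentile lay between 0.73 and 0.78. STYK1 read 7.40 and 7.86 in the STYK1 arrays, against 0.26 and 0.61, under the floor, in the control arrays, and was at least 118-fold higher (limma, adjusted p = 0.0373). Array medians lay between 0.615 and 0.629, and correlations between arrays across probe sets lay between 0.985 and 0.987. Of the hepatocyte genes, ALB, albumin, read 10.6 on both STYK1 arrays and 10.5 and 10.4 in the controls, and all 8 measured of 9 listed lay above the floor. Of markers of other cell types, 0 of 5 endothelial and 0 of 4 immune genes had a mean above the floor. Among stellate cell and fibroblast markers COL1A1 did, 1 of 7.

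Of the 9 genes, 3 gave a clear signal on all 4 arrays: IGFBP1, IGFBP4 and IGF2R. IGFBP3 and IGFBP6 lay just above the floor on all 4, between 0.82 and 1.15. IGFALS was above it on 3 arrays, IGFBP5 and IGFBP2 on 1 array each, and IGF1 on 0. A signal at the floor does not show that a gene is silent, and differences of such genes are held near 0 by the background.

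**Figure D1:**
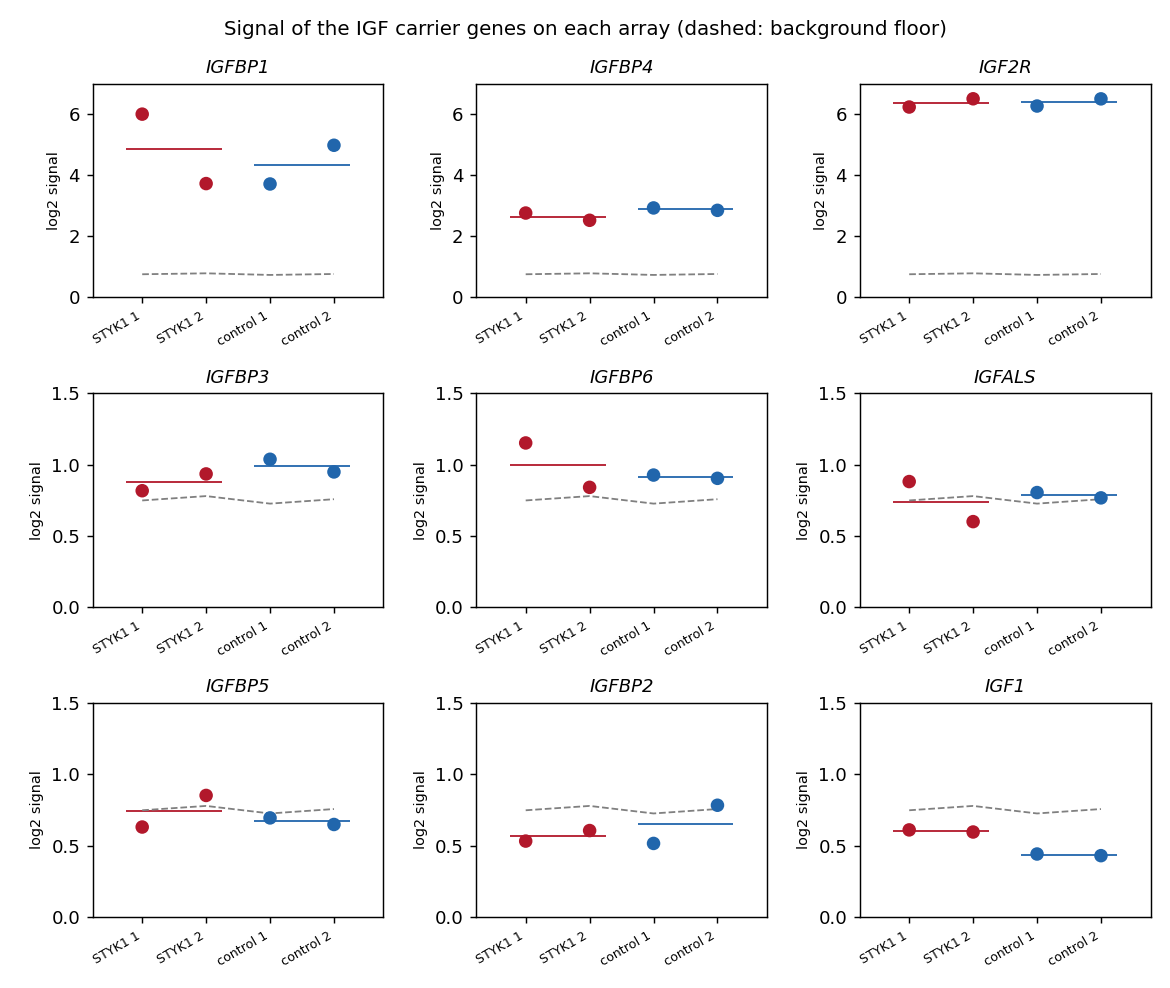
Log2 signal of the 9 IGF carrier genes on each array, with STYK1 arrays in red and control arrays in blue. Horizontal bars are group means of 2 arrays and the dashed line is the background floor of each array; the upper row has a wider scale than the others. IGFBP1 is high on STYK1 replicate 1 and control replicate 2, IGF2R is level, and IGF1 lies under the floor on all 4 arrays.

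No member differed between STYK1 and control cells past the test. With limma fitted over all 53617 probe sets, 0 of the 9 had an adjusted p under 0.05 and 0 had an unadjusted p under 0.05. Over all probe sets 0.00187% (1 probe set, STYK1 itself) and 4.64% did. The adjusted p-values of the members lay between 0.979 and 1.00. The groups did not overlap for 3 of the 9, IGFBP3 and IGFBP4 lower and IGF1 higher in STYK1 cells, or 33.3%, where 32.8% of all probe sets did so. By direction this was 1 higher, against 17.4% of all probe sets, and 2 lower, against 15.4%. The median difference of the 9 was −0.02, against 0.01 over all probe sets.

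IGFBP1 was the member with the widest spread. It read 6.0 on STYK1 replicate 1 and 3.72 on STYK1 replicate 2, against 3.71 on control replicate 1 and 4.98 on control replicate 2. The high and the low reading of each group thus interleaved: STYK1 replicate 2 and control replicate 1 were nearly equal, and the other 2 arrays lay above them. The means were 4.86 ± 1.61 in STYK1 cells and 4.34 ± 0.90 in control cells (SD, n = 2 each). The fitted difference was 0.52 with a standard error of 0.85 and a 95% interval of −1.72 to 2.75 (limma, adjusted p = 0.994), so a several-fold difference in either direction lies within the interval. Its sign rested on single arrays. Without STYK1 replicate 1 it was −0.62 and without control replicate 1 it was −0.12, while without STYK1 replicate 2 it was 1.66.

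The gap between the 2 STYK1 arrays was 2.28 on the log2 scale, a 4.85-fold ratio, and the gap between the 2 controls was 1.27, a 2.41-fold ratio. Among the 5763 other genes with a mean signal of at least 2, the median gap was 0.14 between the STYK1 arrays and 0.13 between the controls, and the 99th percentiles were 0.83 and 0.74. Only SNORD3C, a small nucleolar RNA, had a gap at least as large between the STYK1 arrays, at −2.56 and so in the opposite sense. Between the controls 5 genes did, all of them small nucleolar or Cajal body RNAs, and again in the opposite sense. None of the 5763 matched IGFBP1 in both gaps, but IGFBP1 was singled out on this spread, so its rank is a description. The small RNAs were looked up because of their values.

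The 5 genes nearest to IGFBP1 in pattern included 2 enzymes of amino acid and folate metabolism. Likeness was the root mean square distance between the deviations of each gene from its own mean over the 4 arrays and those of IGFBP1. It was taken among 50 other genes with a mean of at least 2 and a range of at least 1. Symbols starting LOC, LINC, MIR, SNOR, RNU or RNY had been left out, so RNAs such as SNORD3C were not candidates. Nearest was CTH, cystathionine gamma-lyase, which makes cysteine, at a distance of 0.43. It read 5.89 and 4.81 on STYK1 replicates 1 and 2, against 4.33 and 5.36 on control replicates 1 and 2. Next came ALDH1L2, a mitochondrial folate enzyme, at 0.46, with 3.11 and 2.00 in the STYK1 arrays against 1.73 and 2.39 in the controls. TUBE1, epsilon-tubulin, followed at 0.49, SLC17A2, a solute carrier, at 0.53, and CHMP4C, an ESCRT-III subunit, at 0.55. In all 5, STYK1 replicate 1 was the highest array and control replicate 2 the second highest. With 4 arrays such a likeness is a description and has no test.

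**Figure D2:**
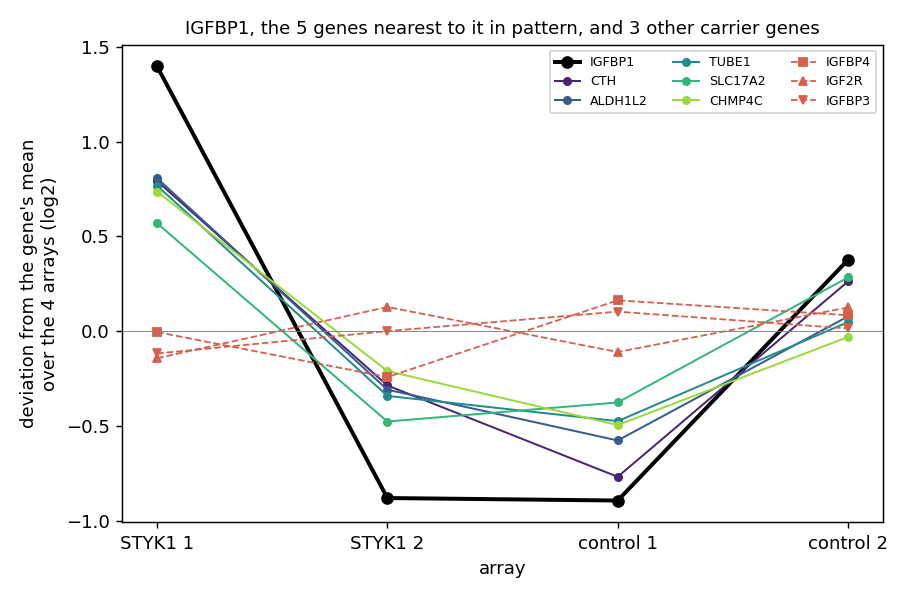
Deviation of each gene from its own mean over the 4 arrays (log2), for IGFBP1 in black, the 5 genes nearest to it in pattern in colour and IGFBP4, IGF2R and IGFBP3 dashed; lines only join the arrays of a gene. IGFBP1 spans from 1.40 on STYK1 replicate 1 to −0.89 on control replicate 1, and the 3 other carrier genes stay within 0.25 of 0.

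Target genes of ATF4, the transcription factor of the amino acid and stress response that is also known to act on IGFBP1, had the same pair of gaps. Of the 14 listed and measured, 13 read higher on STYK1 replicate 1 than on STYK1 replicate 2. The same 13 also read higher on control replicate 2 than on control replicate 1. The share was 92.9%, against 31.7% of the 5764 genes with a mean of at least 2. The list had no such filter on the mean, and the share among all 22357 genes was 26.4%. FGF21, near the floor, was the exception. The list was chosen with earlier results of these arrays known and its genes are targets of the same factor, so the share is a description. The part of ATF4 in the spread of IGFBP1 was not tested. ASNS, asparagine synthetase, read 5.59 and 4.61 on STYK1 replicates 1 and 2, against 4.54 and 4.96 on control replicates 1 and 2. DDIT3, the stress factor CHOP, read 2.92 and 1.77 in the STYK1 arrays, against 2.24 and 2.78 in the controls. SESN2, a leucine sensor that restrains mTORC1, read 5.68 and 4.72 in the STYK1 arrays, against 4.88 and 5.43 in the controls. DDIT3 and SESN2 are named because of their values. The mean deviation of the list was 0.33 and −0.25 on STYK1 replicates 1 and 2, and −0.20 and 0.12 on control replicates 1 and 2. ATF4 mRNA itself did not share the pattern, with 7.13 and 6.94 in the STYK1 arrays and 7.14 and 7.01 in the controls. ATF4 protein was not measured. As a contrast of STYK1 with control the list had a median difference of 0.04, and 0 of 14 passed (limma, with 1 at an unadjusted p under 0.05, PPP1R15A).

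Small nucleolar and Cajal body RNAs ran the other way on the same arrays. Of 74 with a mean of at least 2, 41 read lower on STYK1 replicate 1 than on STYK1 replicate 2 and lower on control replicate 2 than on control replicate 1, a share of 55.4%, against 24.5% of the 5764 genes. Their median gaps were −0.27 in both groups. Their part in the spread of IGFBP1 was not tested. Nothing in the labels places STYK1 replicate 1 with control replicate 2.

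**Figure D3:**
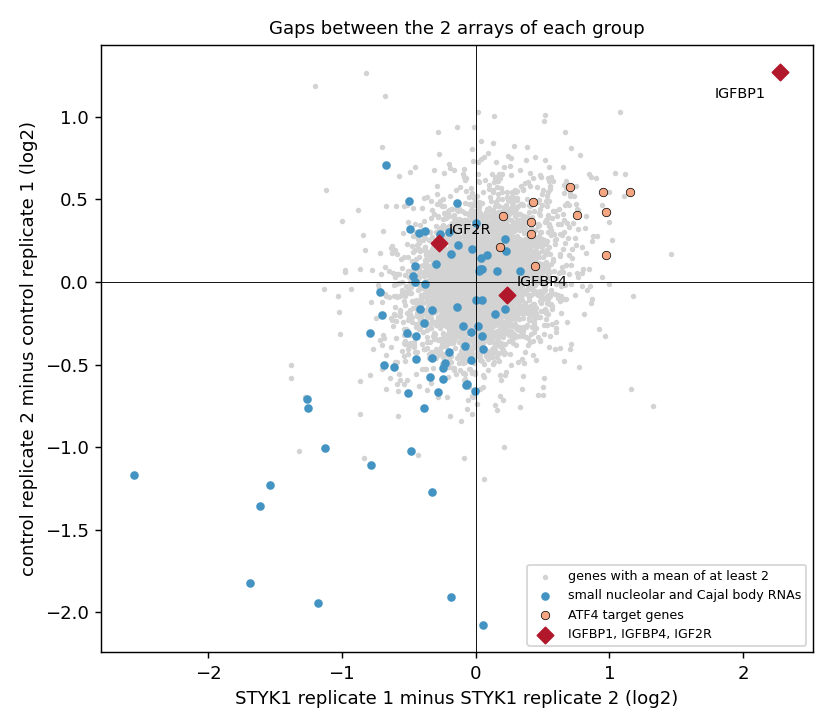
For each gene with a mean signal of at least 2, the gap between the STYK1 arrays (replicate 1 minus replicate 2, horizontal) is plotted against the gap between the control arrays (replicate 2 minus replicate 1, vertical), both in log2 units. IGFBP1 lies alone at 2.28 and 1.27, ATF4 target genes fall in the same quadrant nearer the centre, small nucleolar and Cajal body RNAs extend into the opposite one, and IGFBP4 and IGF2R lie near the centre.

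A sequence that ATF4 is known to bind occurs in the promoters of ASNS and CHAC1, 2 of the listed targets, shown as examples of the motif searched. Both genes had the 2 gaps in the sense of IGFBP1, but CHAC1 was highest on control replicate 2, with 4.63 and 4.22 on the STYK1 arrays against 4.42 and 4.71 on the controls. Each line gives 30 bases from RefSeq on the strand of the gene (GRCh38.p14), with a match to TGATGNAA in either orientation in capitals.
ASNS, chr7:97872458-97872487, minus strand: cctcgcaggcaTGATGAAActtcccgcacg
CHAC1, chr15:40953251-40953280, plus strand: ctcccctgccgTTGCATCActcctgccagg
In the 250 bases before the start, on either strand, TGATGNAA was found in 4 of 19 windows of the ATF4 target genes, or 21.1%, and in 3.14% of all 35116 promoter windows. By gene it was found in 4 of the 13 targets with an entry, ASNS, CHAC1, ATF3 and FGF21, the last being the gene without the shared gaps. SESN2 and DDIT3 were among the 9 without it. Of the genes nearest to IGFBP1, 3 have an entry and 0 held it. Entries matched 8 of the 9 carrier genes, with 11 windows, and 0 of these windows held it. IGFBP1 is the member without an entry. A match is a description of letters and not a measured site. The targets were listed as known ATF4 genes, so a higher share among them does not bear on these arrays.

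On chromosome 7 IGFBP3 is the neighbour of IGFBP1, with no other protein-coding gene starting between them. Its readings did not follow those of IGFBP1, but so near the floor a shared pattern could be hidden by the background. IGFBP3 is the main carrier of the ternary complex. It read 0.82 and 0.93 on the STYK1 arrays, against 1.04 and 0.95 on the controls, all just above the floor. The groups did not overlap, and the difference was −0.12 with a standard error of 0.10 and a 95% interval of −0.37 to 0.13 (limma, adjusted p = 0.981).

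IGFBP4, which holds IGF in the tissue until PAPPA cuts it, came nearest to a difference among the members. It read 2.76 and 2.52 on the STYK1 arrays, against 2.92 and 2.84 on the controls, so both STYK1 values lay below both control values. Means were 2.64 ± 0.17 in STYK1 cells and 2.88 ± 0.06 in control cells (SD, n = 2 each). The difference was −0.25 (standard error 0.12) and missed the threshold (limma, adjusted p = 0.979, unadjusted p = 0.091). The sign was the same in all 11 alternatives run for it, between −0.37 without STYK1 replicate 1 and −0.13 without STYK1 replicate 2. This adds no support, since leaving out 1 array cannot reverse the sign of groups that do not overlap. Changes of moderation, filter or block left the difference itself as it was. The summed signal of the 7 stellate cell and fibroblast markers was also lower, at 3.89 and 4.20 in the STYK1 arrays against 4.29 and 4.85 in the controls, with 6 of the 7 at or under the mean floor. None was at 0, since the background itself reads above 0, and their part in the IGFBP4 and IGFBP3 values was not tested. The samples come from the Huh7 line. These log2 readings lie at or near background, so nothing about cells of another type can be read from their sum.

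IGF2R, the mannose phosphate receptor that carries IGF2 and lysosomal enzymes to the lysosome, was level. It read 6.23 and 6.50 on STYK1 replicates 1 and 2, against 6.27 and 6.50 on control replicates 1 and 2, so the groups overlapped almost fully. The difference was −0.02 with a 95% interval of −0.39 to 0.36 (limma, adjusted p = 1.00). Replicate 1 was the lower array in both groups. STYK1 replicate 1 minus STYK1 replicate 2 was −0.27, and control replicate 2 minus control replicate 1 was 0.24, so the gap between the STYK1 arrays was opposite in sign to that of IGFBP1.

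The promoters of the 2 clearly measured members with an entry, IGF2R and IGFBP4, are shown to let the level receptor be compared with the binding protein. Each line holds the 250 bases before the start from RefSeq (GRCh38.p14), plus strand, with CACGTG, the E-box bound by MYC and TFEB family factors, and TATAAA, the TATA box, in capitals.
IGF2R, chr6:159968832-159969081: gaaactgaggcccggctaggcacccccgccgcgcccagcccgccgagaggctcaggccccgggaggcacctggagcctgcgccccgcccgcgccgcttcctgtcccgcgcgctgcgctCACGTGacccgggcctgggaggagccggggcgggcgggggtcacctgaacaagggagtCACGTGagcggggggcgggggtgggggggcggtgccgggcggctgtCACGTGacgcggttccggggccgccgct
IGFBP4, chr17:40443200-40443449: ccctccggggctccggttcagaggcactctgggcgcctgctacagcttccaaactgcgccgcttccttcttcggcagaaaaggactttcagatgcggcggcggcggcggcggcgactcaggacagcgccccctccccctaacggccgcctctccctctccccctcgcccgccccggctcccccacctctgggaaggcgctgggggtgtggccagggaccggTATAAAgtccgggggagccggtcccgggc
IGF2R holds CACGTG at 3 places and no TATAAA, and IGFBP4 holds 1 TATAAA and no CACGTG. Over all 35116 windows, searched on both strands, CACGTG occurred in 6.34% and TATAAA in 10.7%. Among the 11 windows of the carrier genes each motif occurred in 1. The motifs do not overlap each other, and no inference on a factor is drawn from them.

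IGFBP6, the binding protein that prefers IGF2, read 1.15 and 0.84 on the STYK1 arrays, against 0.93 and 0.90 on the controls. STYK1 replicate 1 was the high array and the groups overlapped. IGFALS, the third partner of the plasma complex, read 0.88 and 0.60 on the STYK1 arrays, against 0.80 and 0.77 on the controls, with STYK1 replicate 2 under the floor. Their differences were 0.08 with an interval of −0.26 to 0.43 for IGFBP6, and −0.04 with an interval of −0.37 to 0.28 for IGFALS.

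IGFBP2 and IGFBP5 lie next to each other on chromosome 2 with no other protein-coding gene starting between them, and neither gave a steady signal above background. IGFBP2 read 0.53 and 0.61 on the STYK1 arrays, against 0.52 and 0.78 on the controls, with only control replicate 2 above its floor. IGFBP5 read 0.63 and 0.85 on the STYK1 arrays, against 0.69 and 0.65 on the controls, with only STYK1 replicate 2 above its floor. Differences were −0.08 and 0.07, and no fold is given for them. IGF1, the growth hormone-dependent ligand, read 0.61 and 0.60 on the STYK1 arrays, against 0.44 and 0.43 on the controls. Its groups did not overlap, but all 4 values lay under the floor, so the difference of 0.17 is one between background readings.

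The rest of the IGF system was read from 8 lists, 77 listed genes in all of which 69 had a probe set under their own symbol. IGF2, the main fetal ligand, is not analysed here. Of the 69, 0 passed (limma, adjusted p). At an unadjusted p under 0.05 (limma) there were 6 higher, or 8.70%, against 2.73% of all probe sets, and 1 lower, or 1.45%, against 1.91%. Many probe sets have no symbol. Among all 22357 genes 1.79% were higher and 1.93% lower. Among genes with a mean of at least 2 the shares were 2.57% and 2.95%. The lists were chosen with earlier results of these arrays known, so these shares are a description. Their median difference was 0.02, against 0.01 over all probe sets.

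At the receptors, IGF1R, through which IGFs signal growth, read 3.22 and 3.35 on the STYK1 arrays, against 3.50 and 3.48 on the controls, a difference of −0.20 (limma, adjusted p = 0.979). INSR, the insulin receptor, read 3.91 and 4.19 on the STYK1 arrays, against 3.87 and 4.04 on the controls, and overlapped. The list of ligands and receptors had 6 measured genes, all of them receptors. Of these, 5 were on the higher side and 1 on the lower, with differences between −0.20 and 0.14. TMEM219, a receptor for IGFBP3, was 0.14 higher and INSRR, an insulin receptor relative near the floor, 0.11 higher.

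Among the proteases and their inhibitors, PAPPA and PAPPA2 lay under the floor on all 4 arrays, while STC2 gave a strong signal. STC2 read 6.50 and 6.30 on the STYK1 arrays, against 6.15 and 5.99 on the controls, and the groups did not overlap. The difference was 0.33 with a standard error of 0.12 and did not pass (limma, adjusted p = 0.979, unadjusted p = 0.0398). STC1 lay under the floor on all 4 arrays, with a difference of 0.15, and PAPPA2 had one of −0.19.

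Of 13 measured adaptors and kinases downstream of the receptors, 6 were on the higher side and 7 on the lower, with a median of −0.05. PDPK1, the kinase that activates AKT, read 2.49 and 2.14 on the STYK1 arrays, against 1.76 and 1.83 on the controls. IRS2, the insulin receptor substrate that FOXO factors induce in liver, read 1.20 and 1.19 on the STYK1 arrays, against 0.95 and 0.84 on the controls. IRS1, its relative, overlapped, with a difference of −0.20. SHC1, the adaptor towards RAS, read 5.30 and 5.45 on the STYK1 arrays, against 5.66 and 5.65 on the controls. PDPK1, IRS2 and SHC1 had unadjusted p-values of 0.0163, 0.0218 and 0.0375, and an adjusted p of 0.979 each (limma).

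The mRNA of most transcription factors known to act on IGFBP1 did not follow its array pattern. Their protein and activity were not measured. FOXO1, which insulin signalling excludes from the nucleus, read 2.11 and 2.41 on the STYK1 arrays, against 1.76 and 1.79 on the controls. NR3C1, the glucocorticoid receptor, read 2.12 and 2.07 on the STYK1 arrays, against 1.78 and 1.74 on the controls. Neither group pair overlapped, with differences of 0.48 and 0.33 and unadjusted p-values of 0.0147 and 0.0131, and neither passed (limma, adjusted p = 0.979). FOXO3 differed by −0.26. HIF1A was the only 1 of the 9 measured factors with both gaps in the sense of IGFBP1, at 0.05 and 0.07.

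Hepatic genes that insulin represses through FOXO factors were on the higher side for 7 of 8, with a median of 0.10, where 51.9% of all probe sets were on that side. Of the 8, 3 had a mean at or under the floor, and INSR and IRS2 stand in other lists too. PCK1, which opens gluconeogenesis, read 0.98 and 0.63 on the STYK1 arrays, against 0.52 and 0.64 on the controls, above the floor on STYK1 replicate 1 only. PPARGC1A, the coactivator PGC-1alpha, differed by 0.19, and G6PC1, the last enzyme of glucose release, lay under the floor on all 4 arrays. SESN1, a relative of SESN2, read 1.36 and 0.81 on STYK1 replicates 1 and 2, against 0.83 and 1.33 on control replicates 1 and 2, so STYK1 replicate 1 and control replicate 2 were its 2 higher arrays, as for IGFBP1. It was picked after its values were seen.

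On the growth hormone side, GHR, the receptor that drives IGF1 and IGFALS in liver, read 0.70 and 0.38 on the STYK1 arrays, against 0.52 and 0.69 on the controls, all under the floor. PRLR, the prolactin receptor, gave a clear signal with a difference of −0.13. STAT5B and JAK2, the signalling pair below GHR, differed by 0.15 and 0.18. Of the 9 genes of this axis 4 had a mean above the floor.

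Of 14 genes for other proteins with an IGFBP-type domain, 8 had a mean at or under the floor. IGFBPL1 and KAZALD1 lay just above it, with means of 0.83 and 0.85. CRIM1 and CCN2 gave a clear signal, with means of 5.06 and 4.81. IGFBP7 read 1.20 and 1.17 on the STYK1 arrays, against 1.18 and 1.16 on the controls. CCN1, a matricellular protein, read 1.73 and 1.69 on the STYK1 arrays, against 1.47 and 1.35 on the controls (difference 0.30, limma, adjusted p = 0.979, unadjusted p = 0.026). CCN2 overlapped at a difference of 0.27, and CCN3, under the floor on all 4 arrays, differed by −0.14. The IGF2 mRNA binding proteins IGF2BP1, IGF2BP2 and IGF2BP3, which are fetal and return in liver cancer, differed by 0.02, −0.12 and 0.03, and IGF2BP1 read between 7.63 and 7.71 on the 4 arrays.

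**Figure D4:**
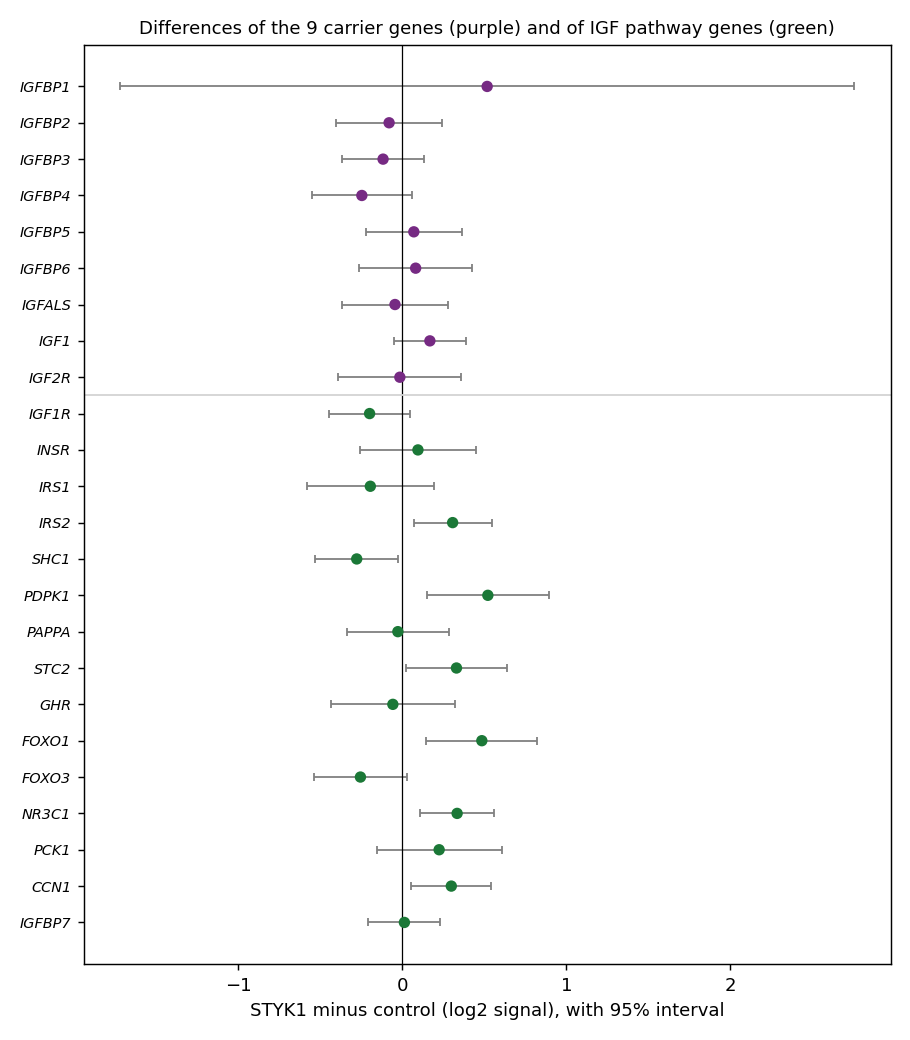
Difference between the STYK1 and control arrays in log2 signal, with its 95% interval from limma, for the 9 IGF carrier genes in purple and 15 IGF pathway genes in green. All 9 carrier intervals include 0; the interval of IGFBP1, from −1.72 to 2.75, is the widest of those drawn, and no gene shown passed the adjusted threshold.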

How the data were processed

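RNA of 2 STYK1 and 2 control samples of Huh7 was measured on arrays. The authors deposited log2 signals for 53617 probe sets, and the submitters' processing notes name the Transcriptome Analysis Console. How it summarized and normalized them is not given in the sources used, and base 2 was inferred from the range of the values. The table has no detection calls or scan dates, so a batch could not be read from it.

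Of the probe sets 23871 had 1 gene symbol, 1842 several and 27904 none here; symbols were updated through RefSeq (GRCh38.p14), and of several probe sets of a gene the brightest over the 4 arrays was kept, giving 22357 genes. limma (version 3.58.1, R 4.3.3) was fitted on all probe sets with eBayes, two-sided, with Benjamini-Hochberg adjustment over the whole table and a threshold of 0.05; intervals are at 95%. The fit was also run on simulated data, with changes larger than any member difference and only in probe sets well above the floor. That run does not bear on the member results. Having 4 arrays limits precision: the standard error of a difference had a median of 0.11. An exact permutation test of 2 arrays against 2 cannot reach 0.05, so none is given. The members, lists and floor were chosen with earlier results of these data known. Named by rule were all members, STYK1, a set of pathway genes listed by name and the 5 genes nearest to IGFBP1. The rule also took up to 3 genes of each list by smallest unadjusted p, though not all of these are printed. Other genes, among them DDIT3, SESN2, SESN1 and SNORD3C, were named because of their values. The alternatives covered moderation, normalization, filters, a replicate block and leaving out each array.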

Additional observations from a re-analysis of the deposited data

How the results depend on the processing

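The count of members with an adjusted p under 0.05 was 0 under all 11 alternatives (limma). At an unadjusted p under 0.05 it was 1, IGFBP4, with quantile normalization and, among the fits that leave out an array (0 to 1), without STYK1 replicate 1; the cause was not tested. Over all probe sets, 1 passed the adjusted threshold and 0 did with any array left out (0 to 0), where 1 residual degree of freedom remains and the lone array is taken to vary as the other group does. At an unadjusted p the 2489 probe sets became 962 above the floor, where 19700 were tested, and 1000 with 1 probe set per gene, where 22357 were tested. Nothing in the labels says that equal replicate numbers mark a shared culture. Deviations of same-numbered arrays correlated at −0.044, and with the replicate number as a block 0 probe sets and 0 members passed.

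Of 96 member values under an alternative, 88 kept their direction and 8 reversed, each with an array left out. The alternatives in moderation and filters and the replicate block leave the difference itself unchanged, so they could not reverse it. The 88 therefore do not measure stability. Leaving out each array in turn gave −0.62 to 1.66 for IGFBP1, −0.21 to 0.054 for IGFBP2, −0.041 to 0.18 for IGFBP5, −0.075 to 0.24 for IGFBP6, −0.19 to 0.096 for IGFALS and −0.15 to 0.12 for IGF2R. The reversals came without STYK1 replicate 1 for IGFBP1 (−0.62), IGFBP6 and IGF2R (0.12), without STYK1 replicate 2 for IGFBP5 and IGFALS, without control replicate 1 for IGFBP1 (−0.12) and without control replicate 2 for IGFBP2 and IGF2R (0.10). IGFBP3, IGFBP4 and IGF1 kept their sign in every alternative run. Their groups did not overlap, so leaving out an array could not reverse the sign. Leaving out each array gave −0.18 (without STYK1 replicate 2) to −0.058 (without STYK1 replicate 1) for IGFBP3, against −0.12 with all arrays, and −0.073 without control replicate 1; it gave −0.37 to −0.13 for IGFBP4 and 0.16 to 0.18 for IGF1. IGFBP2, IGFBP5 and IGF1 were not tested under the floor filter, and the mean over probe sets of a gene was not run, since each member has 1. Signals near or under the floor limit 6 of the 9 members.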
